A study of Mus musculus with 6 samples.

Results

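Melanotransferrin, written Mfi2 in the deposited table and Meltf in current annotation, was described together with 9 central genes of cellular iron handling. The genes are Mfi2, Trf, Tfrc, Slc11a2, Slc40a1, Fth1, Ftl1, Aco1, Ireb2 and Hmox1, taken by symbol as 10 of the 23420 rows of a count table of mouse pancreatic islets. They were chosen with the difference between the groups in view, so their values in that comparison are a description, with no test.

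Islets came from C57BL/6J mice with a gastric infusion that ran for 9 days. The OIO (overfeeding-induced obesity) mice were given Ensure, a liquid diet, at 13 to 18.5 kcal/day, and the Control mice were given saline. Each group held 3 libraries of polyA RNA. Whether every library was made from its own mouse is not in the labels, and p-values therefore reflect the spread between libraries only, which can be technical. The infusion is the only difference between the groups that the labels give. Libraries held between 20968058 counts (OIO replicate 1) and 48178375 counts (OIO replicate 2), so a floor of 3 counts corresponded to between 0.0623 and 0.143 CPM, the counts scaled to a library size of 1e+06. Between 27.1% and 30.8% of all counts fell on the hormone genes Ins1, Ins2, Gcg and Iapp, which fits the tissue label. The share was 29.1%, 30.1% and 30.8% in OIO and 27.5%, 27.1% and 29.0% in Control, so the lowest OIO library lay just above the highest Control library. All 10 genes were well above the floor in every library, and all 10 passed the filter on low counts.

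Iron circulates bound to transferrin (Trf), enters cells when the transferrin receptor (Tfrc) is taken up, and is carried across the endosomal membrane by DMT1 (Slc11a2). Ferritin, built from heavy (Fth1) and light (Ftl1) chains, stores it, and ferroportin (Slc40a1) exports it. The iron regulatory proteins (Aco1 and Ireb2) bind a hairpin, the iron-responsive element, in messenger RNAs of this pathway when iron is scarce: in a 5′ untranslated region (UTR) they block translation, and in the 3′ UTR of the receptor they protect the transcript from decay. Regulation by the ferritin and ferroportin hairpins is therefore largely translational, which RNA counts do not measure.

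The hairpins are shown as a part of how iron regulates some of these genes. The annotated UTRs of protein-coding transcripts were searched, on the transcript strand only, for C, 5 bases, CAGTG, a base other than G and 5 more bases, where the runs of 5 bases pair at all 5 places, G with T allowed. The 17 bases of each match are printed 5′ to 3′ as DNA from the GENCODE M21 transcripts (GRCm38), with the loop of 6 bases in capitals. The matches are given first for the 4 sites in the 3′ UTR of Tfrc, then for the 5′ UTRs of Slc40a1, Fth1 and Ftl1.
Tfrc, chr16:32631225-32631241, plus strand: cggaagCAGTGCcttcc
Tfrc, chr16:32631604-32631620, plus strand: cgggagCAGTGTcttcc
Tfrc, chr16:32631669-32631685, plus strand: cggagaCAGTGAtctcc
Tfrc, chr16:32631716-32631732, plus strand: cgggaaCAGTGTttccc
Slc40a1, chr1:45925471-45925487, minus strand: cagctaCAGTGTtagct
Fth1, chr19:9982738-9982754, plus strand: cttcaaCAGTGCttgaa
Ftl1, chr7:45459785-45459801, minus strand: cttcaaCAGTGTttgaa

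The ferritin chains carried the same stem, with a loop that ended in C in Fth1 and in T in Ftl1. Of the 10 genes, 4 held a match in a UTR. Across 21877 protein-coding genes, 23 held one in a 5′ UTR (0.105%) and 100 in a 3′ UTR (0.457%). Mfi2, Trf, Slc11a2, Aco1, Ireb2 and Hmox1 held none, which says only that these letters are not in their annotated UTRs. A hairpin with another loop or an imperfect stem would be missed, so the matches do not sort the genes by iron regulation. Among the other iron genes, the same search matched the 5′ UTR of Alas2, the erythroid enzyme of haem synthesis.
Alas2, chrX:150547464-150547480, plus strand: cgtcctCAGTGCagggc

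Of the 10 genes, Mfi2 alone differed between OIO and Control islets at an adjusted p under 0.05, and it was 3.79-fold higher in OIO. The receptor, the importer, both ferritin chains and both iron regulatory proteins had group means that differed by less than the larger SD of the groups. Ferroportin and haem oxygenase had higher means in OIO, with overlapping libraries. Over all 14903 genes tested, 7.37% passed this threshold (4.54% higher and 2.84% lower in OIO). These were 676 higher and 423 lower genes, a balance that turned to 498 higher and 1113 lower with scaling by library size alone. For 29.3% the 3 libraries of one group all lay on one side of the other group, which among the 10 genes held for Mfi2 only. Since the genes were chosen on this contrast, nothing is read from either count.

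**Figure D1:**
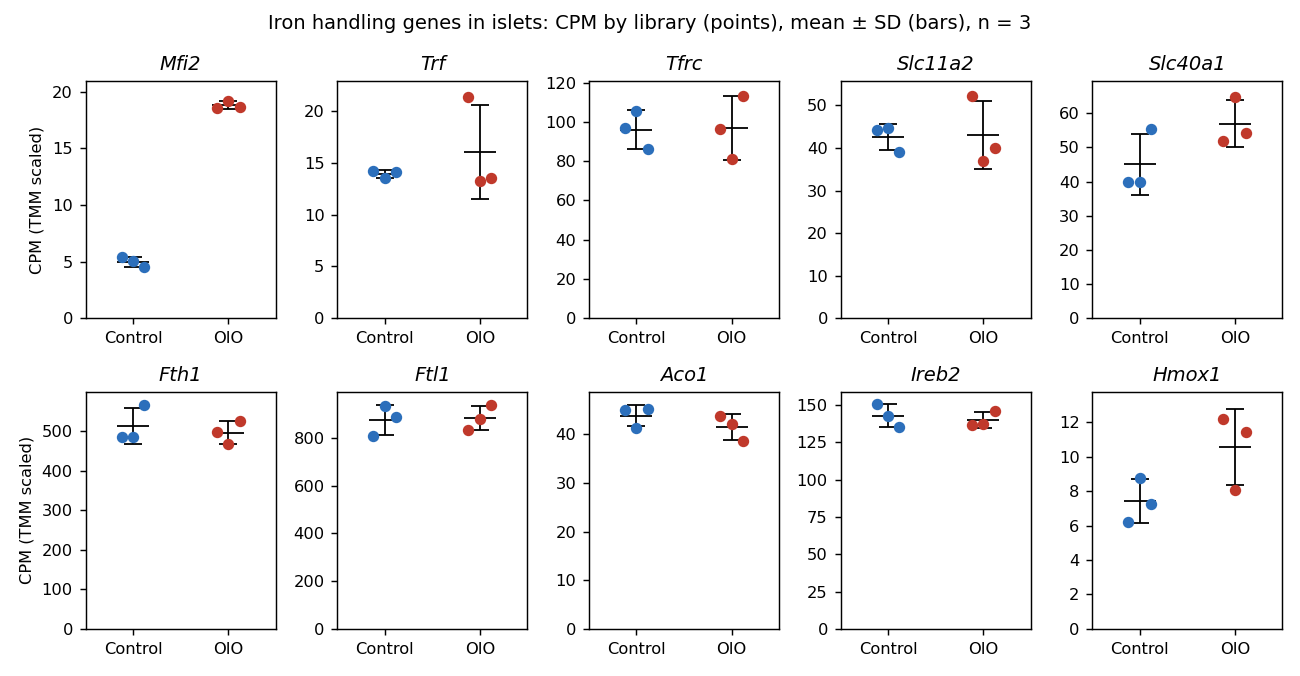
Expression in CPM of the 10 genes in each library (points), with the mean and SD of each group (bars, n = 3), on axes that start at 0. Mfi2 lies at 18.6 to 19.2 CPM in OIO and 4.48 to 5.41 in Control, while the groups overlap for the other 9 genes.

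Mfi2 (chr16:31878810-31899020, plus strand) encodes melanotransferrin, an iron-binding homologue of transferrin that is anchored in the cell membrane. Its level was 18.6, 19.2 and 18.6 CPM in OIO replicates 1, 2 and 3, and 5.41, 5.01 and 4.48 CPM in Control replicates 1, 2 and 3. The OIO libraries lay close together and far above every Control library. These levels rest on 388, 909 and 648 counts in OIO and 186, 195 and 180 counts in Control. The means were 18.8 ± 0.34 CPM in OIO and 4.97 ± 0.46 CPM in Control (SD, n = 3 each), a log2 fold change of 1.92 (SE 0.10). On the linear scale this was 3.79-fold, with a 95% interval of 3.27 to 4.4 that is not adjusted for the number of genes. Ranked by p among all tested genes Mfi2 stood at 3, which only describes it, since it was chosen on this contrast. Among the 565 genes called higher whose mean log2 CPM reached 2, its rise was number 2 in size. In the authors' deposited table, which ranked it 2 of 14903 by p, its log2 fold change was 1.93.

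Trf (chr9:103204001-103230444, minus strand) encodes transferrin, the soluble relative of melanotransferrin that carries iron in plasma. It had 21.3, 13.3 and 13.5 CPM in OIO and 14.2, 13.5 and 14.1 CPM in Control. OIO replicate 1 stood above the other 5 libraries, which lay within 1 CPM of each other. The means were 16 ± 4.57 and 13.9 ± 0.39 CPM, with a log2 fold change of 0.18 (SE 0.17), which was −0.04 without OIO replicate 1. Trf overlaps an annotated gene on the same strand that is not in the count table, so how reads shared by the pair were counted is not known.

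Tfrc (chr16:32608920-32632794, plus strand), the receptor through which most cells take up transferrin-bound iron, had 96.2, 81.1 and 113 CPM in OIO and 96.7, 106 and 86.0 CPM in Control. The highest and the lowest library were both OIO, and they enclosed all Control values. The means were 96.9 ± 16.2 and 96.2 ± 9.88 CPM, with a log2 fold change of 0.01 (SE 0.13). The unadjusted 95% interval of the fold was 0.815 to 1.25, so the counts leave room for a change within that range in either direction. The counts of Mfi2 per count of Tfrc were 0.193, 0.237 and 0.164 in OIO and 0.0559, 0.0474 and 0.0521 in Control.

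Slc11a2 (chr15:100387898-100425072, minus strand), the endosomal iron importer, had 52.2, 36.9 and 40.05 CPM in OIO and 44.2, 44.6 and 39.1 CPM in Control. OIO replicate 1 was the highest library and OIO replicate 2 the lowest. The means were 43.0 ± 8.10 and 42.7 ± 3.06 CPM, and the 95% interval of the fold ran from 0.819 to 1.23. An antisense gene in the count table overlaps it, and the sources used here do not state whether strand was used in counting.

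Slc40a1 (chr1:45908068-45926523, minus strand) encodes ferroportin, the only known cellular iron exporter of vertebrates. Its levels were 52.0, 64.7 and 54.1 CPM in OIO and 39.96, 39.8 and 55.3 CPM in Control. Control replicates 1 and 2 were below every OIO library, and Control replicate 3 lay inside the OIO range. The means were 56.9 ± 6.81 and 45.0 ± 8.89 CPM, with a log2 fold change of 0.34 (SE 0.15), and the 95% interval of the fold was 0.986 to 1.63. Without Control replicate 3 the log2 fold change was 0.52, past the threshold of 0.05. Slc40a1 passed in 2 of 13 alternative fits, both without Control replicate 3, and 1 of them was added after the data were seen.

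Ferroportin is also abundant in macrophages that recycle iron, so the marker lists of other cells are set beside it. The 10 macrophage markers summed to 316 to 415 CPM in OIO and 299 to 382 CPM in Control, none was at 0, and edgeR called none of the 10. Within Control, replicate 3 was highest for Slc40a1 and had the highest sum of macrophage markers (382 CPM) and of stromal and pericyte markers (733 CPM). In the other Control libraries these sums were 299 and 304 CPM, and 335 and 305 CPM. Within OIO the order was the opposite for macrophages: replicate 2, highest for Slc40a1 (64.7 CPM), had the lowest macrophage sum (316 CPM), and replicate 1, lowest for Slc40a1 (52.0 CPM), had the highest (415 CPM). The OIO stromal sums were 441, 294 and 263 CPM, and edgeR called none of the 9 stromal genes. Their median log2 fold change was −0.59, in a range of −0.74 to 0.21. The summed duct markers were higher in every OIO library than in any Control library. They were 366 to 489 CPM in OIO and 312 to 322 CPM in Control, none at 0, and Krt7, a keratin, was the 1 of 7 that edgeR called. The 7 duct genes did not move together, with log2 fold changes from −0.57 to 0.71 and a median of 0.10. For 2 of the 7 the groups lay apart on the higher side, against 14.1% of all genes. The sums overlapped between groups for acinar markers (3094 to 7223 CPM in OIO and 2638 to 8514 CPM in Control) and for endothelial markers (728 to 804 and 734 to 765 CPM). They also overlapped for Schwann cell markers (30.4 to 38.1 and 36.1 to 44.2 CPM) and for T and B cell markers (5.08 to 32.2 and 6.07 to 23.4 CPM). Median log2 fold changes were −0.18 for acinar, 0.09 for endothelial, −0.34 for Schwann and 1.08 for T and B cell genes. Of these 4 lists, edgeR called 1 gene, the endothelial receptor Tek, which was higher in OIO. The part of any of these cells in the ferroportin values, or in the other differences between the groups, was not tested. In bulk RNA, fewer cells of a type and less RNA per cell cannot be told apart.

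Fth1 (chr19:9980598-9985098, plus strand), the ferritin chain that oxidises iron for storage, had 497, 466 and 526 CPM in OIO and 486, 486 and 566 CPM in Control. Control replicate 3 was the highest library and OIO replicate 2 the lowest. The means were 496 ± 29.8 and 512 ± 46.1 CPM, and the 95% interval of the fold was 0.863 to 1.09.

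Ftl1 (chr7:45457944-45459884, minus strand), the chain that helps to form the mineral core, had 834, 878 and 935 CPM in OIO and 809, 933 and 887 CPM in Control. The groups covered nearly the same range. The means were 882 ± 50.9 and 876 ± 62.6 CPM, and the 95% interval of the fold was 0.905 to 1.12. Fth1 counts per Ftl1 count averaged 0.563 ± 0.032 in OIO and 0.587 ± 0.060 in Control. The annotation holds 7 ferritin pseudogenes, none of them in the count table, and 2 further genes overlap Ftl1, so the ferritin counts may hold reads of near copies.

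Aco1 (chr4:40143081-40198338, plus strand) encodes IRP1, the iron regulatory protein that doubles as the cytosolic aconitase when it holds an iron-sulphur cluster. Its levels were 43.7, 42.1 and 38.6 CPM in OIO and 45.1, 41.3 and 45.2 CPM in Control, which overlapped. The means were 41.5 ± 2.65 and 43.9 ± 2.19 CPM, and the 95% interval of the fold was 0.851 to 1.046. Ireb2 (chr9:54863789-54912530, plus strand) encodes IRP2, which is degraded when iron is plentiful. It had 136, 137 and 146 CPM in OIO and 150.4, 142 and 135 CPM in Control. The ranges again overlapped, and the 95% interval of the fold was 0.897 to 1.07. Ireb2 had 3.39 ± 0.35 counts per Aco1 count in OIO and 3.26 ± 0.23 in Control.

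Hmox1 (chr8:75093621-75100589, plus strand) encodes haem oxygenase 1, the inducible enzyme that frees iron from haem. It had 12.2, 8.05 and 11.4 CPM in OIO and 6.19, 8.74 and 7.27 CPM in Control. OIO replicates 1 and 3 were above all Control libraries, and OIO replicate 2 lay inside the Control range. The means were 10.6 ± 2.22 and 7.4 ± 1.28 CPM, with a log2 fold change of 0.50 (SE 0.18) and an unadjusted 95% interval of the fold of 1.07 to 1.87. Without OIO replicate 2 the log2 fold change was 0.68, past the threshold of 0.05. Hmox1 passed in this 1 of 13 alternative fits only. Macrophages that clear red cells also express Hmox1, and OIO replicates 1 and 3, which were high for Hmox1, had macrophage sums of 415 and 355 CPM against 316 CPM in OIO replicate 2. In Control the order was not the same, since replicate 3 had the highest macrophage sum (382 CPM) with Hmox1 at 7.27 CPM, and replicate 2 had 304 CPM with Hmox1 at 8.74 CPM. The part of macrophages in this difference was not tested. Of 9 erythroid markers, 6 were in the count table and 1 was tested. They summed to between 2.01 and 5.41 CPM in OIO and between 1.37 and 2.89 CPM in Control, with Hba-a1 and Hba-a2, the alpha globins, at 0 in all libraries. Most of each sum was Alas2, with 4.21, 2.62 and 1.64 CPM in OIO and 1.08, 1.93 and 2.39 CPM in Control. The sums therefore say little about blood in the islets.

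**Figure D2:**
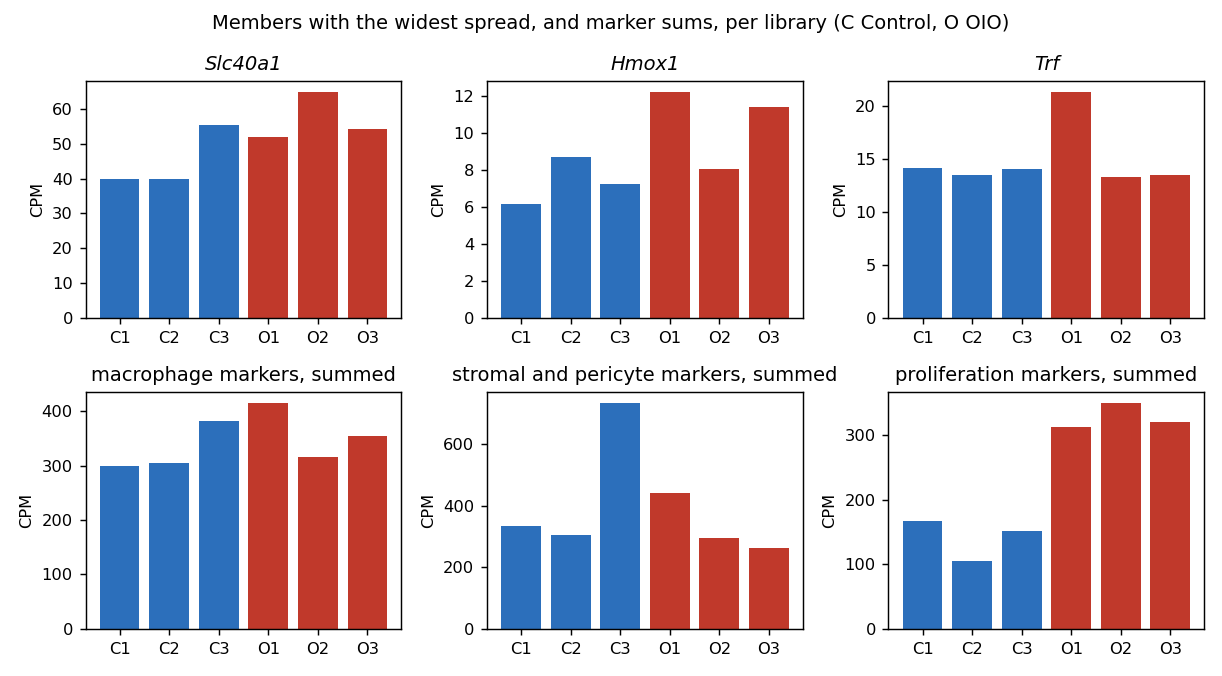
Bars give CPM in each library for Slc40a1, Hmox1 and Trf (top) and the summed CPM of macrophage, stromal and pericyte, and proliferation markers (bottom), with Control libraries C1 to C3 in blue and OIO libraries O1 to O3 in red. Control replicate 3 is the highest Control library for Slc40a1 (55.3 CPM) and for the stromal sum (733 CPM), and the proliferation sum is 312 to 349 CPM in OIO against 105 to 167 CPM in Control.

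The genes differed widely in how far libraries of a group lay apart. The SD of log2 CPM within groups was 0.07 for Ireb2, 0.08 for Aco1 and 0.09 for Mfi2 and Ftl1. It was 0.20 for Tfrc and Slc11a2, 0.22 for Slc40a1 and 0.27 for Trf and Hmox1. Thus Mfi2 combined the largest difference between the groups with one of the smaller spreads, although its level per transcript length was the lowest of the 10.

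**Figure D3:**
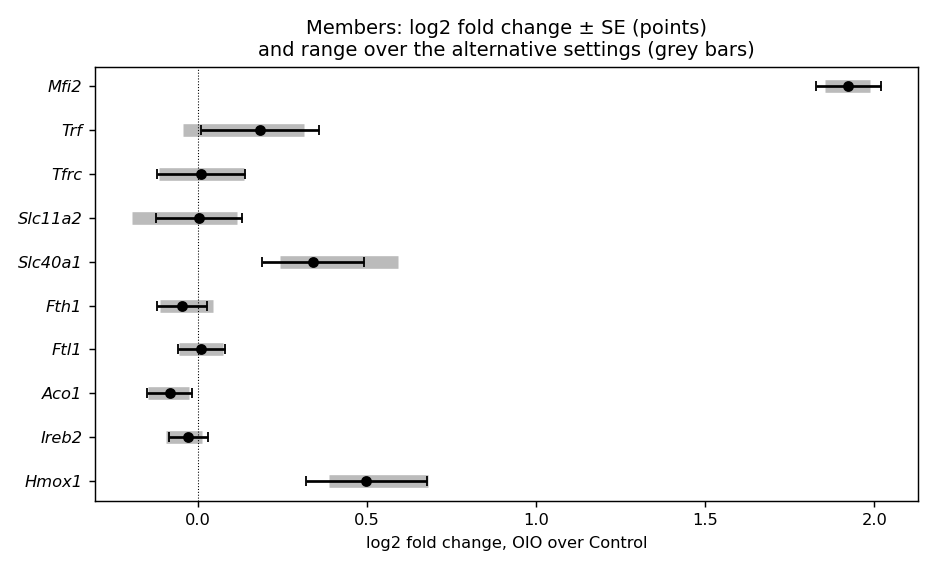
Points and black bars give each of the 10 genes' log2 fold change (OIO over Control) and SE, and grey bars give the range over the alternative fits. Mfi2 lies at 1.92 with a range of 1.85 to 1.99, while the ranges of Trf, Tfrc, Slc11a2, Fth1, Ftl1 and Ireb2 include 0.

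To compare levels between genes, CPM was divided by the length of the principal transcript in kilobases. In Control islets the order of these levels was Ftl1 (905 CPM per kb), Fth1 (343), Ireb2 (24.7), Tfrc (19.7), Slc11a2 (14.1), Slc40a1 (13.4), Aco1 (11.5), Trf (5.42), Hmox1 (4.72) and Mfi2 (1.20). The neighbours Slc11a2 and Slc40a1 overlapped between libraries, as did Trf and Hmox1, and the other neighbours did not. In OIO islets Mfi2 averaged 4.55 CPM per kb, still the lowest of the 10. Slc40a1 (16.9 CPM per kb) and Hmox1 (6.73 CPM per kb) each stood 1 place higher than in Control. There the libraries of Slc40a1 overlapped those of both Tfrc and Slc11a2, and those of Hmox1 overlapped those of Trf. The ferritin chains together took 0.131% to 0.148% of all counts.

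Mfi2 and Tfrc lie on the same chromosome, 709.9 kb apart, and the genes nearest to Mfi2 were examined for a difference shared along the chromosome. At an adjusted p under 0.05 in edgeR, none of the 6 nearest tested protein-coding genes, 3 on each side, differed. Over all genes tested 7.37% passed this threshold, and for 29.3% the groups did not overlap. With 6 genes, nothing about this stretch of the chromosome is read from either count. Dlg1, a scaffold protein gene that ends 3.68 kb before Mfi2, stood at 0.10 on the log2 scale (SE 0.06, adjusted p = 0.33). Bdh1, a ketone body enzyme, had 6.60 ± 0.45 CPM in OIO and 9.37 ± 1.71 CPM in Control with no overlap, or −0.51 on the log2 scale (SE 0.14, adjusted p = 0.060). Senp5, a SUMO protease, had 63.1 ± 1.62 and 71.8 ± 3.24 CPM with no overlap, at −0.19 (SE 0.06, adjusted p = 0.074). These last 2 had an unadjusted p under 0.05, and both were lower in OIO. Whether Mfi2 shares a difference with its neighbours along the chromosome was not tested. Bdh1 passed in 4 of 13 alternative fits, DESeq2 among them (adjusted p = 0.041), and Senp5 in 1, with library size alone. The other neighbours were Apod, a lipid carrier, at −0.02 (adjusted p = 0.94), 0610012G03Rik at 0.09 (adjusted p = 0.57) and Ncbp2, of the cap-binding complex, at −0.11 (adjusted p = 0.34).

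**Figure D4:**
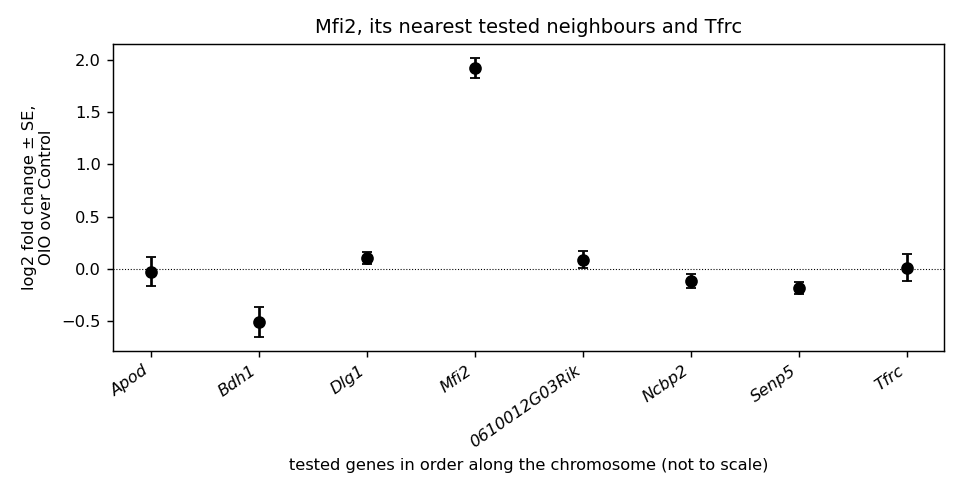
Points give log2 fold changes (OIO over Control) and SE for Mfi2, the 6 nearest tested protein-coding genes and Tfrc, in chromosomal order and not to scale. Mfi2 is at 1.92, and the other 7 genes lie between −0.51 and 0.10.

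The genes whose log2 CPM followed Mfi2 most closely over the 6 libraries were sought among 11030 tested genes whose mean log2 CPM reached 2. Likeness was the root mean square distance between profiles, each centred on its own mean, and its median over all candidates was 0.97. Mcm5, a helicase subunit of DNA replication, lay at a distance of 0.20 with 22.2 ± 2.01 CPM in OIO and 6.07 ± 1.67 CPM in Control. Cdc20, which triggers anaphase, lay at 0.21 with 6.89 ± 0.08 and 2.28 ± 0.19 CPM. Dlgap5, a mitotic spindle protein, lay at 0.22 with 6.22 ± 0.24 and 2.13 ± 0.40 CPM. The order rests on 6 libraries in 2 groups, so any gene with a rise of this size and a small spread ranks high. Of 12 proliferation markers, 10 were higher in OIO at an adjusted p under 0.05, against 4.54% of all genes tested. For all 12 the groups lay apart on the higher side, against 14.1% of all genes. Their summed level was 312 to 349 CPM in OIO and 105 to 167 CPM in Control. Whether the Mfi2 level follows the share of dividing cells was not tested.

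Beyond the 10 genes, lists of iron genes by role held 122 names, of which 120 were in the table and 110 were tested. Of these, 4 were higher and 1 lower in OIO islets, and 105 did not pass. The share past the threshold was 4.55%, against 7.37% of all genes tested. The groups did not overlap for 23 higher and 7 lower genes, or 27.3% against 29.3% of all genes. The median log2 fold change was 0.07, and −0.01 over all genes tested. At an unadjusted p under 0.05 there were 26 genes. The share of all genes at that level is not given here, so nothing is read from this count. With DESeq2, 7 were higher and 2 lower. Without any one of the OIO libraries 3 genes passed in all, and without Control replicate 2 only 1.

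Of the genes of iron uptake and the transferrin cycle, 1 of 15 rose and none fell. Mcoln1, the lysosomal channel that releases iron and calcium, rose from 25.9 ± 1.39 to 34.0 ± 2.04 CPM, by 0.39 on the log2 scale (SE 0.07, adjusted p = 0.011). Its 3 OIO libraries (34.5, 31.8 and 35.8 CPM) were all above the Control libraries (27.2, 26.2 and 24.4 CPM). It passed in all 12 alternative fits planned, and had an adjusted p = 0.053 without OIO replicate 1 and Control replicate 3 together. Among the genes that did not pass, 3 had large differences and were picked out after their values were seen. Lcn2, the siderophore-binding lipocalin, had 12.5, 7.14 and 3.22 CPM in OIO and 1.54, 2.26 and 1.84 CPM in Control. The groups did not overlap, and the OIO libraries were spread widely, with an adjusted p = 0.080. Ltf, lactoferrin of the transferrin family, had 0.862, 3.48 and 0.489 CPM in OIO and 0.174, 0.463 and 0.0996 CPM in Control, with an adjusted p = 0.14. Steap4, a ferrireductase, had 78.6, 22.0 and 61.8 CPM in OIO and 26.9, 32.4 and 25.9 CPM in Control, so OIO replicate 2 was the lowest of all 6 libraries. Its log2 fold change was 0.91 (adjusted p = 0.40), and 1.31 (adjusted p = 0.0040) without OIO replicate 2. Lcn2 passed with DESeq2 and without OIO replicate 3, and Ltf with DESeq2.

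Of 8 genes of iron storage, ferroxidases and iron chaperones, 1 fell. Bach1, the haem-sensing repressor of Hmox1 and of ferritin genes, fell from 43.6 ± 1.56 to 35.9 ± 2.46 CPM, or −0.28 on the log2 scale (SE 0.07, adjusted p = 0.031). Its OIO libraries had 35.2, 33.9 and 38.6 CPM and its Control libraries 43.8, 45.1 and 42.0 CPM. The call was lost, at the same direction, when OIO replicate 1 or 2 or Control replicate 1 or 2 was left out (adjusted p of up to 0.16). Among its known targets, Hmox1 had a log2 fold change of 0.50, with an unadjusted 95% interval of the fold of 1.07 to 1.87. The ferritin chains Fth1 and Ftl1 had −0.05 and 0.01. None of these targets passed the threshold, and the part of Bach1 in their levels was not tested. Ftmt, mitochondrial ferritin, had no count in any library.

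None of 11 genes of hepcidin and BMP signalling passed. Hepcidin, the hormone that removes ferroportin from the cell surface, is encoded by Hamp, which had no count in any library. Hamp2, its mouse paralogue, had the lowest p of the list at 0.240, 0.211 and 0.0862 CPM in OIO and 0.610, 0.745 and 0.274 CPM in Control. These are between 3 and 29 counts a library, and the log2 fold change of −1.61 did not pass (SE 0.53, adjusted p = 0.097).

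Of 15 haem synthesis genes, 1 rose. Slc25a39, a mitochondrial carrier of glutathione, rose from 130.3 ± 2.65 to 154 ± 4.41 CPM, by 0.24 (SE 0.05, adjusted p = 0.019). All 3 OIO libraries (149, 158 and 156 CPM) were above the Control libraries (133, 129 and 129 CPM). Leaving out OIO replicate 2, OIO replicate 3 or Control replicate 2 ended the call (adjusted p of up to 0.084). Of 11 genes of haem transport and breakdown, none passed in edgeR. The nearest was Pgrmc1, a haem-binding membrane protein, at 145 ± 4.67 CPM in OIO and 167 ± 7.44 CPM in Control (log2 fold change −0.21, SE 0.06, adjusted p = 0.052). It passed with DESeq2 (adjusted p = 0.021).

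Iron-sulphur clusters, cofactors of respiration and of IRP1, are built in mitochondria and the cytosol. Of 20 mitochondrial assembly genes, 1 rose. For 6 of the 20 the groups lay apart on the higher side, a larger share than the 14.1% of all genes, and this was not tested. Bola3, an assembly factor for lipoate synthesis and respiratory complexes, rose from 22.2 ± 0.93 to 28.3 ± 1.60 CPM, by 0.35 (SE 0.07, adjusted p = 0.017). Its libraries had 27.97, 26.9 and 30.0 CPM in OIO and 22.0, 21.4 and 23.2 CPM in Control. It did not pass without OIO replicate 3 or Control replicate 2, with an adjusted p of up to 0.062. None of 11 cytosolic assembly genes passed. Bola2, a relative of Bola3, came nearest with 13.0 ± 1.21 and 10.3 ± 0.63 CPM, which did not overlap (log2 fold change 0.34, SE 0.10, adjusted p = 0.066).

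Of the 4 tested genes in the list of other transcripts with an iron-responsive element, none passed. Their log2 fold changes lay between −0.13 and 0.08, with a median of 0.04. Of 15 targets of NRF2, the oxidative stress factor that also induces Hmox1 and ferritin, 1 rose. Txn1, thioredoxin, rose from 44.8 ± 5.06 to 56.0 ± 3.65 CPM, by 0.32 (SE 0.08, adjusted p = 0.0497). It did not pass in 8 of 13 alternative fits, with library size alone, upper-quartile scaling and limma voom among them, and an adjusted p of up to 0.14. The median log2 fold change of the 15 NRF2 targets was 0.14, and the groups lay apart on the higher side for 7, against 14.1% of all genes.

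**Figure D5:**
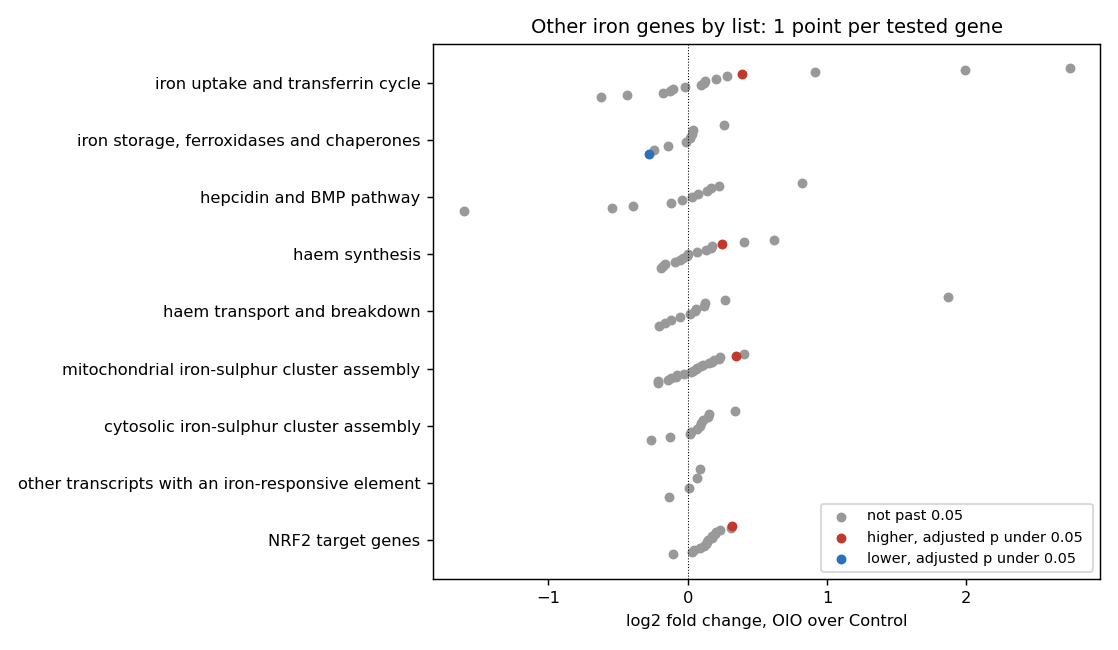
Each point is a tested iron gene beyond the 10, placed by list (rows) and by log2 fold change of OIO over Control (x axis), in red or blue where the adjusted p was under 0.05. Of 110 genes, 4 are higher and 1 lower, and the grey points farthest to the right include Ltf (2.75) and Lcn2 (1.99), which did not pass.

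In the authors' deposited table the log2 fold changes of Hmox1 and Slc40a1 were 0.43 and 0.36, with adjusted p-values of 0.20 and 0.16. There Mcoln1 (0.39), Slc25a39 (0.24), Bola3 (0.35) and Bach1 (−0.28) had adjusted p-values of 0.021, 0.031, 0.027 and 0.047 in the authors' deposited table, and Txn1 (0.32) had 0.072.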

How the data were processed

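The authors deposited whole-number counts for 23420 gene symbols in 6 libraries, with no normalization. Per the labels, RNA was extracted with Trizol and libraries came from an Illumina TruSeq RNA kit. Among the tools in the submitters' processing notes are kallisto, limma and bcl2fastq, and the builds listed are mm10 and GRCm38. The sources used here do not state how kallisto estimates became whole counts. A second table deposited by the authors held per gene the log2 fold change and mean log2 expression, 2 scores (a moderated statistic and a log odds), and the p-value, raw and adjusted. Its direction is not stated there. Its sign was the same as here for 1099 of the 1099 genes called.

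Counts were fitted in edgeR 4.0.16 (R 4.3.3) with filterByExpr, TMM scaling and a robust quasi-likelihood model with group as its only term. P-values were adjusted by Benjamini-Hochberg over 14903 genes, with a threshold of 0.05. Each SE was derived from the log2 fold change and the F statistic (absolute value over root F). CPM uses TMM-scaled library sizes. Alternatives used DESeq2 1.42.0, limma 3.58.1 voom, other scalings, no filter and the omission of each library. The fit was tested on simulated data. Replicates were numbered in accession order, and no pair within a group held the same counts within counting noise.

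The members and lists were chosen with earlier results of these data known. Named were all 10 members, each listed gene past the threshold or else the one of lowest p in its list, the 3 nearest tested genes on each side of Mfi2 and the 5 genes nearest to it in profile. Results for 3 genes that this rule chose are not reported here. A list holding only the inhibitor of carbonic anhydrase had no tested gene. Gene positions and UTRs are from GENCODE M21, in which, with RefSeq synonyms, 98.4% of symbols were found.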

Additional observations from a re-analysis of the deposited data

How the results depend on the processing

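There were 12 alternatives planned and 1 added after seeing the data (without OIO replicate 1 and Control replicate 3 together). Over these, Mfi2 kept its direction at 1.85 to 1.99. Mfi2 was chosen for its rise in these libraries, so fits of the same libraries give it no separate support. Tfrc, Trf, Slc11a2, Fth1, Ftl1 and Ireb2 changed sign in 2 to 5 of the alternatives, never past the threshold. Slc40a1 was 0.59 and passed in the added fit. Scaling by library size alone moved the median of all genes to −0.08 and gave 498 higher and 1113 lower genes in all, against 676 and 423, and 4 lower iron genes against 1. DESeq2 called 9 iron genes (7 higher, 2 lower) against 5. Leaving out single libraries gave 336 to 560 higher, 112 to 303 lower and 460 to 817 called genes, with 513 called without OIO replicate 1, 460 without OIO replicate 2, 506 without OIO replicate 3 and 701 without Control replicate 2. For iron genes it gave 1 to 4 higher, 0 to 1 lower and 1 to 5 called, with 1 without Control replicate 2 and 3 without each OIO library. The added fit gave 142 lower and 599 called genes, and 2 iron genes, both higher and none (0) lower. These fits have fewer libraries, and the cause of the other changes was not tested. Apod turned to 0.10 without OIO replicate 2 and 0.08 without Control replicate 3, within a range of −0.13 to 0.10. No paired analysis was possible because the labels give the groups no shared replicate numbers. With 3 libraries a group, a difference of the size seen in Slc40a1 or Hmox1 is of the order of the spread between libraries.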
